A study of Caenorhabditis elegans with 36 samples.

Results

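Y53F4B.10, C44B12.6 and Y77E11A.3 are heat-inducible genes of Caenorhabditis elegans. The study's annotation notes several repeats around each and names no LTR retrotransposon element beside them, and whether those repeats hold LTR fragments was not tested. They were chosen by their RNA polymerase II (Pol II) values, as genes with more Pol II under heat in the hrde-1 mutant and not in WT, so Pol II at 15C-G3 and at 23C is given below as a description with no test. Each was matched by its gene name to 1 entry of the table of 20167 genes, and all 3 were found and passed the filter on low values (a mean of at least 1 RPKM). All belong to the high-stringent NHGs, heat-inducible genes held down by nuclear RNAi, which were picked by mRNA of the 15C and 23C generations in cultures of the same experiment.

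Nuclear RNAi in the worm germline works through small RNAs that are loaded onto the Argonaute protein HRDE-1. The loaded Argonaute enters germ cell nuclei, recognises nascent transcripts of its target genes, lowers transcription there and directs trimethylation of histone H3 at lysine 9 (H3K9me3), a mark of heterochromatin. LTR retrotransposons and ordinary genes are both among its targets. The marks and small RNAs can pass to progeny, which is why gene activity was followed over generations.

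Cultures of hrde-1 (tm1200) and of WT (N2) animals were grown on OP50 at 15 °C (15C-G3 was sampled), then at 23 °C (23C-G2, 23C-G4 and 23C-G6), then again at 15 °C (p15C-G1 and p15C-G2). Each of these 12 cultures gave 1 ChIP-seq library for Pol II phosphorylated at serine 2 of its C-terminal repeat (the elongating form), 1 for H3K9me3 and 1 for input chromatin, all from whole young gravid adults of the study's repeat 2. Each genotype was 1 lineage, so libraries of a group are successive generations and p-values measure the spread between them. Young adults were collected 114 to 120 h after L1 release at 15 °C and 50 to 55 h at 23 °C, so that age and temperature cannot be told apart between phases. Whole animals also cannot tell fewer cells of a type from less signal per cell.

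Values are the authors' RPKM, which scale reads to gene length and library depth. From the steps between values, Pol II libraries held 3.07 to 5.66 M reads, H3K9me3 libraries 2.07 to 7.97 M reads and input libraries only 0.221 to 1.32 M reads. Pol II over the hrde-1 gene itself was 76.5 to 129 RPKM in hrde-1 and 107 to 189 RPKM in WT, lower in the mutant at each of 6 generations, which does not test the deletion itself. Markers of germline, intestine, zygotic embryo, sperm, muscle and neurons were looked up. No gene of the table was at 0 in any library (lowest value 0.0507 RPKM). Marker values above 0 therefore do not show which cells were present. The summed Pol II of 8 germline markers was 410 to 460 RPKM in hrde-1 and 425 to 630 RPKM in WT at 23C, and 372 to 556 RPKM in hrde-1 and 528 to 658 RPKM in WT at p15C. Sums of the 5 sperm markers were 20.9 to 34.1 RPKM in hrde-1 and at most 22.0 RPKM in WT at p15C, and those of the 5 intestine markers 345 to 450 RPKM in hrde-1 and 637 to 701 RPKM in WT. Their part in the results below was not tested.

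Y53F4B.10 is a protein-coding gene annotated as an orthologue of insulin, the hormone that governs growth and metabolism. It is 1416 bp long and lies at chrII:15001997-15003412 on the minus strand (WS190), close to the right end of the chromosome. Its Pol II in hrde-1 was 7.64 RPKM at 15C-G3, 32.9, 53.1 and 44.9 RPKM at 23C-G2, G4 and G6, and 22.0 and 19.9 RPKM at p15C-G1 and G2. In WT it was 3.95, 3.56, 2.90, 2.75, 3.61 and 3.00 RPKM over the same generations. No mutant library overlapped any WT library, though the choice of the genes used the 15C-G3 and 23C values. The share of all genes separated in this way was not counted. The mutant exceeded WT 1.94-fold at 15C-G3, 18.3-fold at 23C-G4 and 6.64-fold at p15C-G2. The reads behind these values were estimated at 361 to 705 per mutant library at 23C and 25 to 32 per WT library at 23C.

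C44B12.6 is annotated as encoding an orthologue of the interleukin 17 family of cytokines, secreted signalling proteins of inflammation in mammals. It covers 2866 bp at chrIV:1129818-1132683 on the minus strand, in the left arm of the chromosome. Pol II over it in hrde-1 was 2.75 RPKM at 15C-G3, 15.5, 20.1 and 17.6 RPKM at 23C-G2, G4 and G6, and 7.12 and 4.38 RPKM at p15C-G1 and G2. In WT the values were 1.11, 2.59, 1.40, 1.74, 2.19 and 1.64 RPKM, so that each mutant library was above each WT library, by the least at 15C-G3. As for Y53F4B.10, the share of all genes separated in this way was not counted. WT levels lay under the median of all genes, with 16 to 37 reads per library. Only 8 of its 36 values came to whole reads (within 0.1 of a read), as did 13 of 36 for Y77E11A.3 and 36 of 36 for Y53F4B.10. Whether reads with several matches were divided between places was not tested, and the levels of C44B12.6 and Y77E11A.3 are uncertain to that extent.

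Y77E11A.3 is annotated as noncoding RNA in RefSeq, and no role is known for it in the sources used here. The gene lies 314 kb from C44B12.6 on the same chromosome arm, at chrIV:1446403-1448315 on the plus strand, and is 1913 bp long. Its Pol II in hrde-1 was 6.35 RPKM at 15C-G3, 18.2, 25.9 and 24.5 RPKM at 23C-G2, G4 and G6, and 13.4 and 11.8 RPKM at p15C-G1 and G2. In WT it was 4.38, 6.04, 5.86, 5.28, 7.42 and 5.92 RPKM. The mutant library of 15C-G3 fell inside the WT range, while the other 5 were above it. WT carried more Pol II over this gene than over the other two.

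**Figure D1:**
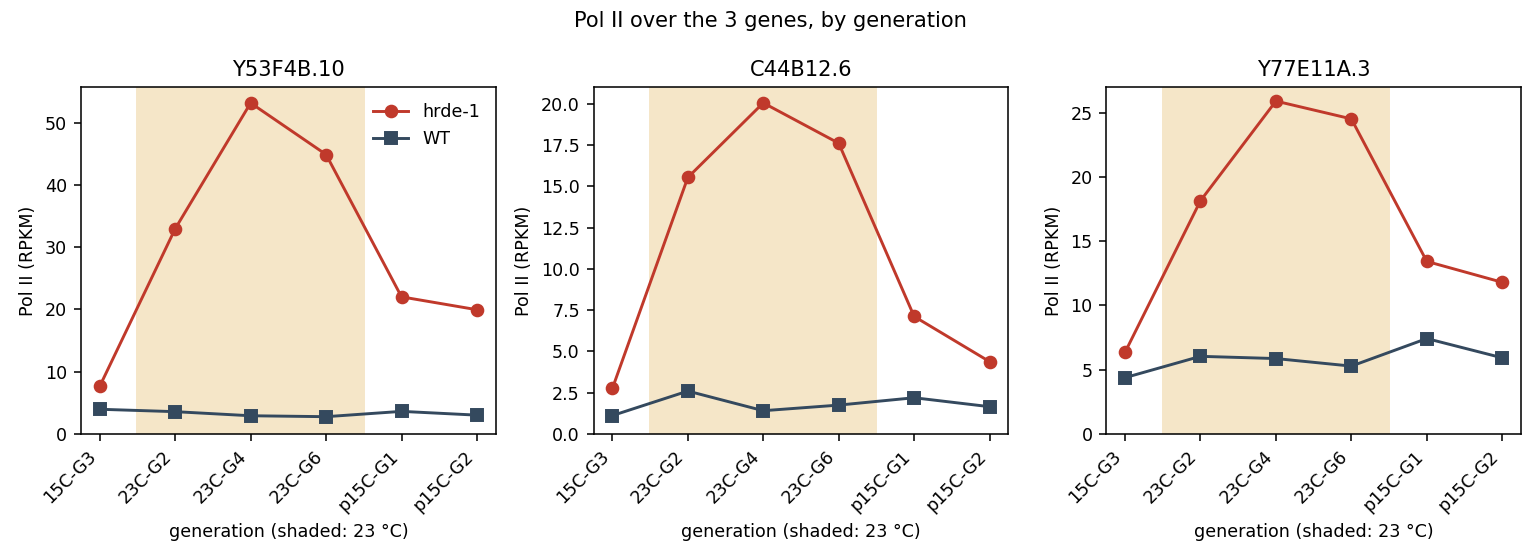
Pol II level (RPKM) over Y53F4B.10, C44B12.6 and Y77E11A.3 in the 6 generations of hrde-1 (red circles) and WT (dark squares), 1 library per point, with the 23 °C generations shaded. The mutant peaks at 23C-G4 for each gene (53.1, 20.1 and 25.9 RPKM) and stays above its own 15C-G3 value at p15C-G1 and p15C-G2, while WT stays between 1.11 and 7.42 RPKM throughout.

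The mutant followed the same order of generations for all 3 genes, with the highest Pol II at 23C-G4, then 23C-G6, 23C-G2, p15C-G1, p15C-G2 and 15C-G3. Having 23C-G2 as the lowest of the 23C generations, as the 3 genes did in hrde-1, was the case for 49.1% of all genes in that genotype. None of the 3 had that order in WT, where 42.2% of all genes had it. The mutant's mean at 23C was 5.72-fold its 15C-G3 value for Y53F4B.10, 6.45-fold for C44B12.6 and 3.60-fold for Y77E11A.3, where the median gene stood at 1.08-fold. In WT the same ratio was 0.778 for Y53F4B.10, 1.73 for C44B12.6 and 1.31 for Y77E11A.3, with the median gene at 1.16. Each heated WT library was above WT 15C-G3 for C44B12.6 and Y77E11A.3 and below it for Y53F4B.10. WT 15C-G3 was 1 library, with the lowest median gene of the Pol II libraries (3.58 RPKM) and 16 reads over C44B12.6. Other normalizations took the WT log2 change from 0.45 to 0.12 for C44B12.6 and from 0.32 to 0.046 for Y77E11A.3 at the lowest. A WT rise of C44B12.6 and Y77E11A.3 under heat therefore cannot be told from a shift between libraries.

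Whether the mutant still carried more Pol II than WT after the return to 15 °C was tested by the levels of the p15C libraries. The choice of the genes did not use these levels. The SE and p also took spread from the other Pol II libraries of the fit, some of which that choice did use. The p15C cultures descend from the heated cultures, so the test is not independent of the choice. Y53F4B.10 was higher in hrde-1, at 21.0 ± 1.46 RPKM against 3.304 ± 0.428 RPKM in WT (SD, n = 2 each), a log2 change of 2.35 (SE 0.21, limma adjusted p = 2.7e-05). C44B12.6 was also higher, with 5.75 ± 1.94 RPKM in hrde-1 and 1.92 ± 0.384 RPKM in WT, a log2 change of 1.19 (SE 0.28, limma adjusted p = 0.076). Y77E11A.3, at 12.62 ± 1.15 RPKM in hrde-1 and 6.67 ± 1.06 RPKM in WT, had a log2 change of 0.83 (SE 0.19, limma adjusted p = 0.075), which is under the 2-fold required for a call. So 2 of the 3 genes were called higher (adjusted p of 0.1 or less and at least 2-fold), against 0.825% of 20116 genes. With only the p15C groups in the fit the same 2 genes were called, and 257 genes in both directions. The limma adjusted p was then 0.018 for C44B12.6 and 0.00081 for Y77E11A.3, whose change stayed under 2-fold. The 191 calls in both directions became 292 with generation as a block, since libraries of the same generation deviated together, and with that block the adjusted p was 7e-06 for Y53F4B.10, 0.0083 for C44B12.6 and 0.0087 for Y77E11A.3.

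The call of C44B12.6 was less firm than that of Y53F4B.10. Its adjusted p was 0.11 or more without either hrde-1 p15C library, either WT p15C library, or the mutant's library of 23C-G4 or of 23C-G6, and 0.95 without both p15C-G1 libraries, whose lower quartile over genes (3.73 RPKM in hrde-1 and 2.60 RPKM in WT) was the highest of the Pol II libraries. The median gene had a log2 change of 0.12 in this comparison, and centring each library on its median left C44B12.6 at 0.997 (under 2-fold) and Y77E11A.3 at 0.64. Y53F4B.10 stayed called without each of these libraries and with centring. Without the p15C-G2 library the number of genes called was 107 (hrde-1 left out) or 113 (WT left out).

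On return to 15 °C the mutant kept part of its Pol II. Relative to the 23C mean, p15C held 0.480 of the level for Y53F4B.10, 0.324 for C44B12.6 and 0.552 for Y77E11A.3, while the median gene stood at 1.10. Relative to 15C-G3, the same p15C means were 2.75-fold, 2.09-fold and 1.99-fold, with the median gene at 1.23-fold. The log2 change of p15C against 23C in hrde-1 was -0.999 for Y53F4B.10, -1.497 for C44B12.6 and -0.80 for Y77E11A.3, and C44B12.6 stood 4th from the bottom of 20116 genes. The 19 other high-stringent NHGs with no LTR element beside them had a median of -0.25 (-0.84 to 0.75) and the 17 beside an LTR element -0.20 (-1.58 to 0.80). These changes share the 23C libraries by which the 3 genes were chosen and are given with no test.

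Over Y53F4B.10 and Y77E11A.3, H3K9me3 was lower in hrde-1 than in WT in every generation sampled, already before heat, and over C44B12.6 it was lower in each library from 23C-G2 on. This mark was not used to choose the genes. Y53F4B.10 had 11.8 RPKM at 15C-G3, 7.62, 6.22 and 6.16 RPKM at 23C-G2, G4 and G6, and 8.77 and 11.06 RPKM at p15C-G1 and G2 in hrde-1. In WT it had 27.4, 20.2, 20.4, 24.4, 21.1 and 24.7 RPKM. The groups did not overlap, and the highest mutant library (15C-G3) lay well below the lowest WT library (23C-G2). How many of all genes separate in this way was not counted.

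Y77E11A.3 had 14.0 RPKM at 15C-G3, 9.88, 4.42 and 4.98 RPKM at 23C-G2, G4 and G6, and 8.25 and 9.52 RPKM at p15C-G1 and G2 in hrde-1, against 28.9, 21.1, 24.2, 22.1, 19.8 and 24.6 RPKM in WT. Its ratio of hrde-1 to WT was lowest at 23C-G4, at 0.183, where 0.213% of all genes had a lower ratio. The mutant and WT libraries again did not overlap, with the share over all genes again not counted.

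C44B12.6 differed from the other two in WT, where it carried less of the mark, at 10.26, 12.0, 13.3, 12.2, 11.3 and 11.06 RPKM. In hrde-1 it had 10.8 RPKM at 15C-G3, 8.86, 7.19 and 5.53 RPKM at 23C-G2, G4 and G6, and 8.49 and 9.94 RPKM at p15C-G1 and G2. At 15C-G3 the genotypes had nearly the same value, with a ratio of hrde-1 to WT of 1.05, and at 23C-G6 the ratio was 0.454. The mutant's 15C-G3 library was the only mutant one inside the WT range.

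**Figure D2:**
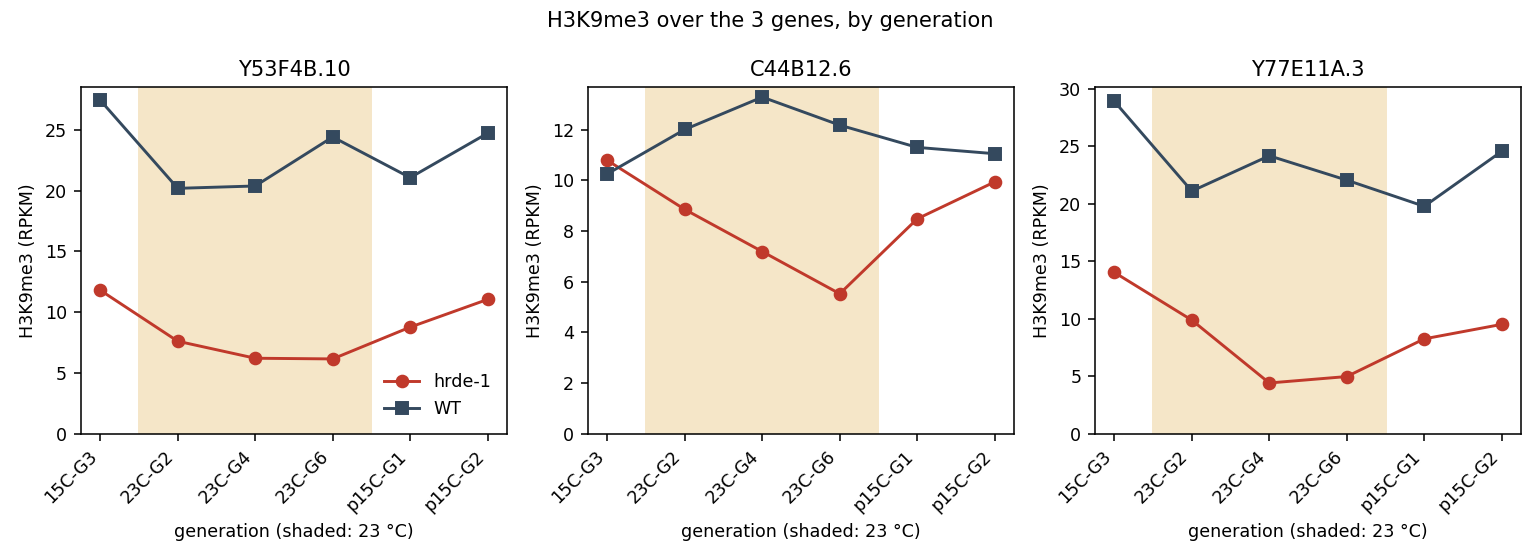
H3K9me3 level (RPKM) over Y53F4B.10, C44B12.6 and Y77E11A.3 in the 6 generations of hrde-1 (red circles) and WT (dark squares), 1 library per point, with the 23 °C generations shaded. In the mutant each gene has its lowest value at 23C-G4 or 23C-G6 (6.16, 5.53 and 4.42 RPKM) and a higher value at p15C-G2 (11.06, 9.94 and 9.52 RPKM).

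At 23C, Y53F4B.10 averaged 6.66 ± 0.825 RPKM of H3K9me3 in hrde-1 and 21.7 ± 2.39 RPKM in WT (SD, n = 3 each), a log2 change of -1.56 (SE 0.12, limma adjusted p = 5.2e-08). Y77E11A.3 averaged 6.43 ± 3.01 RPKM in hrde-1 and 22.4 ± 1.57 RPKM in WT, a log2 change of -1.73 (SE 0.18, limma adjusted p = 4.6e-06). C44B12.6, with 7.19 ± 1.66 RPKM in hrde-1 and 12.5 ± 0.694 RPKM in WT, had a log2 change of -0.74 (SE 0.13, limma adjusted p = 0.0015), under 2-fold. Thus 2 of the 3 genes were called lower, against 0.838% of 20167 genes. By rank of the log2 change Y77E11A.3 was 69th, Y53F4B.10 92nd and C44B12.6 238th from the bottom.

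At p15C the same 2 genes were called lower, against 0.902% of 20167 genes. Y53F4B.10 had 9.91 ± 1.61 RPKM in hrde-1 and 22.9 ± 2.58 RPKM in WT (SD, n = 2 each), a log2 change of -1.13 (SE 0.15, limma adjusted p = 7.8e-05). Y77E11A.3 had 8.88 ± 0.891 RPKM in hrde-1 and 22.2 ± 3.38 RPKM in WT, a log2 change of -1.22 (SE 0.22, limma adjusted p = 0.0036). For C44B12.6 the log2 change was -0.26 (95% interval -0.59 to 0.07, limma adjusted p = 0.56). Without hrde-1 p15C-G1 the change of Y53F4B.10 was -0.98, just under 2-fold, and without WT p15C-G2 that of Y77E11A.3 was -1.07 with an adjusted p of 0.11. On the ratio to input neither was called (-1.31 for Y53F4B.10 and -0.71 for Y77E11A.3, adjusted p = 1 for both).

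The change of H3K9me3 with heat was not called for any of the 3 genes. The baseline was 1 library, 15C-G3, in each genotype, so SE and p took the spread from the other groups and a missed call says little. Every 23C library of hrde-1 was below its single 15C-G3 library, with log2 changes of -0.75 for Y53F4B.10 (SE 0.17, limma adjusted p = 0.14), -0.55 for C44B12.6 (SE 0.18, adjusted p = 0.37) and -1.09 for Y77E11A.3 (SE 0.26, adjusted p = 0.16). None was called, and neither were most genes, with 0.0595% called lower. The share of all genes with every 23C library of hrde-1 below 15C-G3 was not counted. Without hrde-1 23C-G2, Y77E11A.3 was called at -1.40 (adjusted p = 0.0022), and the count of genes called in both directions, 13, became 34. It was 5 without the mutant's 23C-G4 library and 0 without that of 23C-G6.

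In WT the heated libraries were below 15C-G3 for Y53F4B.10 (log2 change -0.33, SE 0.17) and Y77E11A.3 (-0.35, SE 0.26) and above it for C44B12.6 (0.26, SE 0.18). The limma adjusted p was 0.59 to 0.74, and none of the 3 was among the 0.0496% of genes called lower. The count called there in both directions was 10, and it was 16 without WT 23C-G2 and 0 without WT 23C-G6. The difference between the genotypes in this response was -0.41 for Y53F4B.10 (95% interval -0.92 to 0.09), -0.81 for C44B12.6 (-1.34 to -0.27) and -0.74 for Y77E11A.3 (-1.51 to 0.04), a test added after the values were seen. It rests on the single 15C-G3 library of each genotype, assumed to vary like the other groups, and with only the groups compared the adjusted p was 1 for each gene. It called 0% of 20167 genes in limma, of which 1278 had an unadjusted p under 0.05.

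On return to 15 °C, H3K9me3 in the mutant stood above its 23C level for the 3 genes, by 0.51 on the log2 scale for Y53F4B.10, 0.33 for C44B12.6 and 0.48 for Y77E11A.3. The 19 other NHGs away from LTR elements had a median of 0.03 and a highest value of 0.23, and the 17 beside an LTR element a median of -0.01 and a highest value of 0.34. Over all genes the median was 0.00, and Y53F4B.10 stood 22nd, Y77E11A.3 40th and C44B12.6 277th from the top of 20167. The p15C and 23C libraries overlapped for C44B12.6 and Y77E11A.3 and did not for Y53F4B.10, with the share over all genes not counted. This comparison was looked at after the values were seen and is a description with no test.

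**Figure D3:**
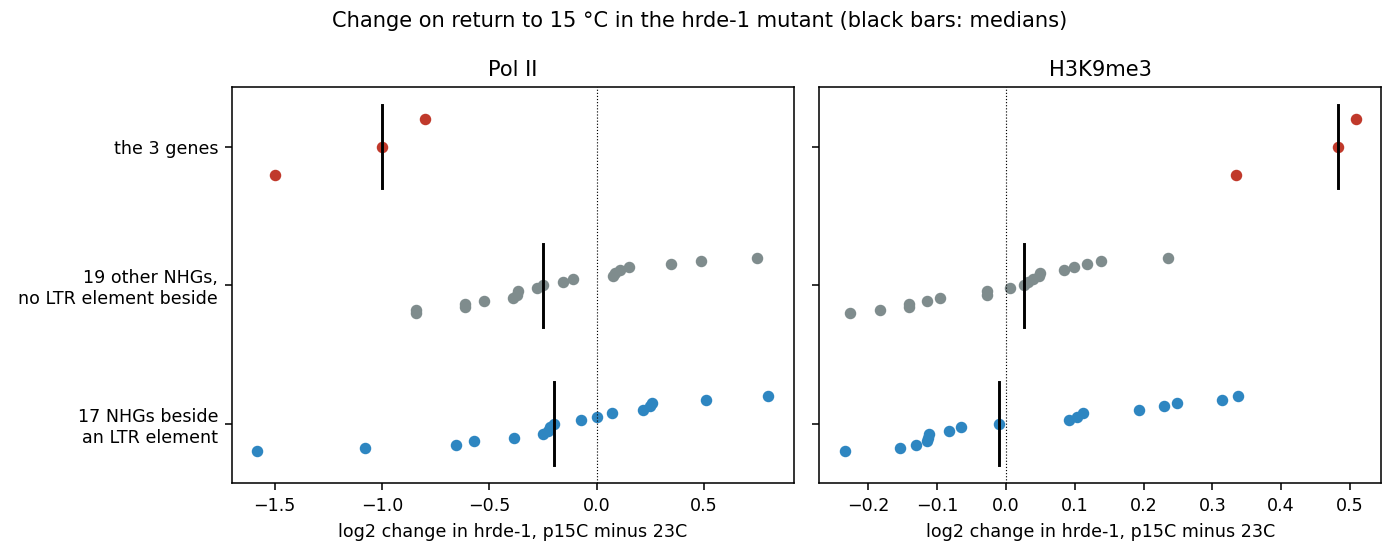
Log2 change in hrde-1 between p15C and 23C for Pol II (left) and H3K9me3 (right), 1 point per gene, for the 3 genes (red), the 19 other NHGs with no LTR element beside them (grey, 2 pairs of which share all values) and the 17 NHGs beside an LTR element (blue), with black bars at the medians. The 3 genes have medians of -0.999 for Pol II and 0.48 for H3K9me3.

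Set against WT levels over the whole table, the mark was high at 2 of the 3 genes. Averaged over 6 generations, H3K9me3 in WT was above that of 97.1% of genes for Y77E11A.3, 96.9% for Y53F4B.10 and 83.8% for C44B12.6. In hrde-1 at 23C the same genes stood at 33.5%, 35.7% and 40.9%, below the median gene. Their Pol II in hrde-1 at 23C was above that of 86.5%, 96.5% and 79.5% of genes.

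The mutant's 15C-G3 library had both the lowest Pol II and the highest H3K9me3 of its 6 generations for all 3 genes, against 6.54% of all genes. In WT this held for Y77E11A.3 alone of the 3, against 5.78% of all genes. The place of 15C-G3 in the mutant's Pol II order was largely set by how the genes were chosen, and Pol II and H3K9me3 come from the same cultures, so these orders are given as a description.

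**Figure D4:**
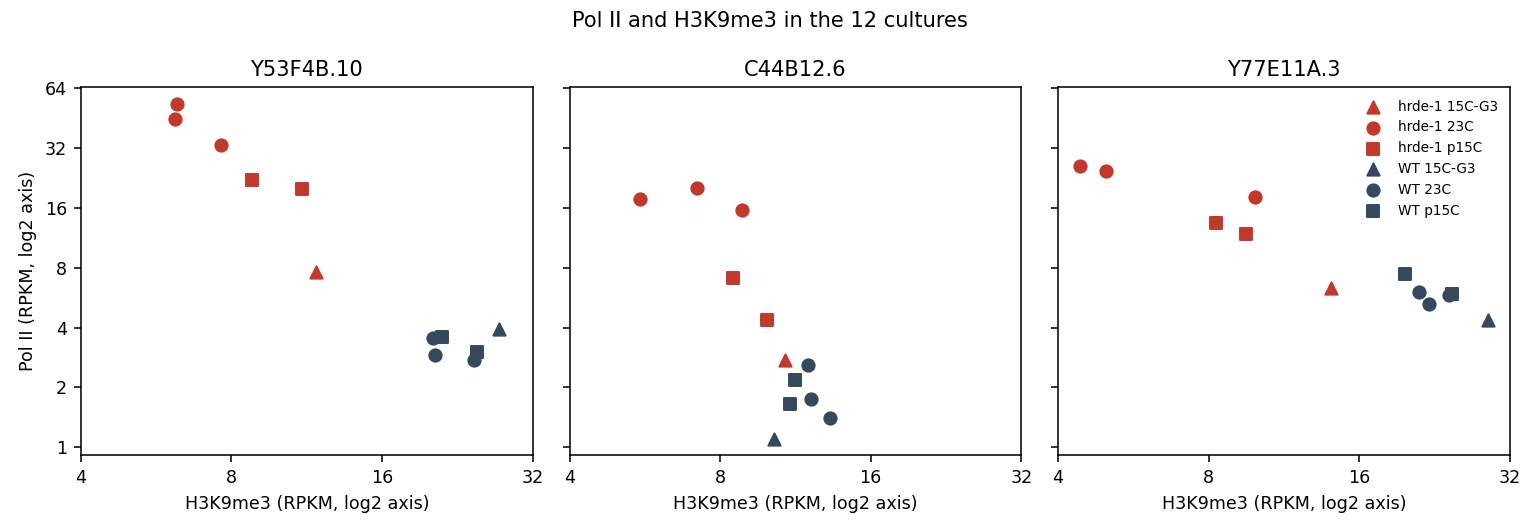
Pol II (vertical, RPKM) against H3K9me3 (horizontal, RPKM), both on log2 axes, for the 12 cultures of each gene, with hrde-1 in red, WT in dark blue, and triangles, circles and squares for 15C-G3, 23C and p15C. Mutant cultures at 23C lie highest, those at p15C lie between them and the triangle of 15C-G3 on the Pol II axis, and for C44B12.6 the mutant's 15C-G3 point (10.8 and 2.75 RPKM) is next to the WT points.

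Input chromatin gave 3.75 to 12.0 RPKM in hrde-1 and 4.71 to 15.8 RPKM in WT for Y53F4B.10, 5.37 to 9.96 RPKM in hrde-1 and 5.52 to 10.2 RPKM in WT for C44B12.6, and 6.48 to 16.5 RPKM in hrde-1 and 9.51 to 22.0 RPKM in WT for Y77E11A.3. These values rested on 2 to 48 reads. Over the 6 generations the log2 change between hrde-1 and WT was -0.24 for Y53F4B.10 (95% interval -0.83 to 0.35), 0.05 for C44B12.6 (-0.42 to 0.52) and -0.54 for Y77E11A.3 (-0.997 to -0.085), with limma adjusted p of 0.78, 0.95 and 0.35, in a comparison that called 0.00496% of genes. For Y77E11A.3 and also for Y53F4B.10, input was lower in hrde-1 in 5 of 6 generations (all but p15C-G2). The part of input in the lower H3K9me3 was not tested for either gene. On the ratio to input, H3K9me3 at 23C was -1.04 for Y53F4B.10 (adjusted p = 0.42) and -1.12 for Y77E11A.3 (adjusted p = 0.33), and Pol II of Y53F4B.10 at p15C was 2.18 (adjusted p = 0.12).

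Within 10 kb of the 3 genes lie 7 others. None of the 7 was called in Pol II at 23C, where 0.795% of 20116 genes were called higher, or in Pol II at p15C or H3K9me3 in either phase. Y53F4B.10 lies between Y53F4B.7, 8691 bp to its left, and Y53F4B.9, 1358 bp to its right. Pol II at 23C was 4.46 RPKM in hrde-1 and 3.59 RPKM in WT over Y53F4B.7, and 31.5 RPKM in hrde-1 and 37.7 RPKM in WT over Y53F4B.9 (log2 changes of 0.24, SE 0.25, and -0.25, SE 0.15, limma adjusted p = 1 for both). Y53F4B.7 carried a like amount of H3K9me3 at 23C in both genotypes, 18.04 RPKM in hrde-1 and 19.3 RPKM in WT.

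C44B12.6 has perm-2, an eggshell gene, 961 bp to its left and no gene listed within 10 kb to its right. The counted window of perm-2 may overlap that of C44B12.6 and share its reads. Pol II over perm-2 at 23C was 17.9 RPKM in hrde-1 and 9.46 RPKM in WT, a log2 change of 0.84 (SE 0.23, limma adjusted p = 0.22). At p15C it was 17.1 RPKM in hrde-1 and 15.6 RPKM in WT (log2 change 0.11, SE 0.29). H3K9me3 over perm-2 at 23C was 12.1 RPKM in hrde-1 and 15.2 RPKM in WT (log2 change -0.31, SE 0.11, adjusted p = 0.17).

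Beside Y77E11A.3 lie clp-7, a calpain protease gene 376 bp to the left, and nadk-1, an NAD kinase gene 8758 bp to the right. The counted window of clp-7 may overlap that of Y77E11A.3 and share its reads. At 23C the log2 change in Pol II was 0.06 (SE 0.13) for clp-7 and 0.04 (SE 0.13) for nadk-1. H3K9me3 was lower over both at 23C, with 6.30 RPKM in hrde-1 and 8.90 RPKM in WT for clp-7 (log2 change -0.44, SE 0.11, limma adjusted p = 0.05) and 13.5 RPKM in hrde-1 and 19.4 RPKM in WT for nadk-1 (-0.49, SE 0.14, adjusted p = 0.073), each under 2-fold.

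**Figure D5:**
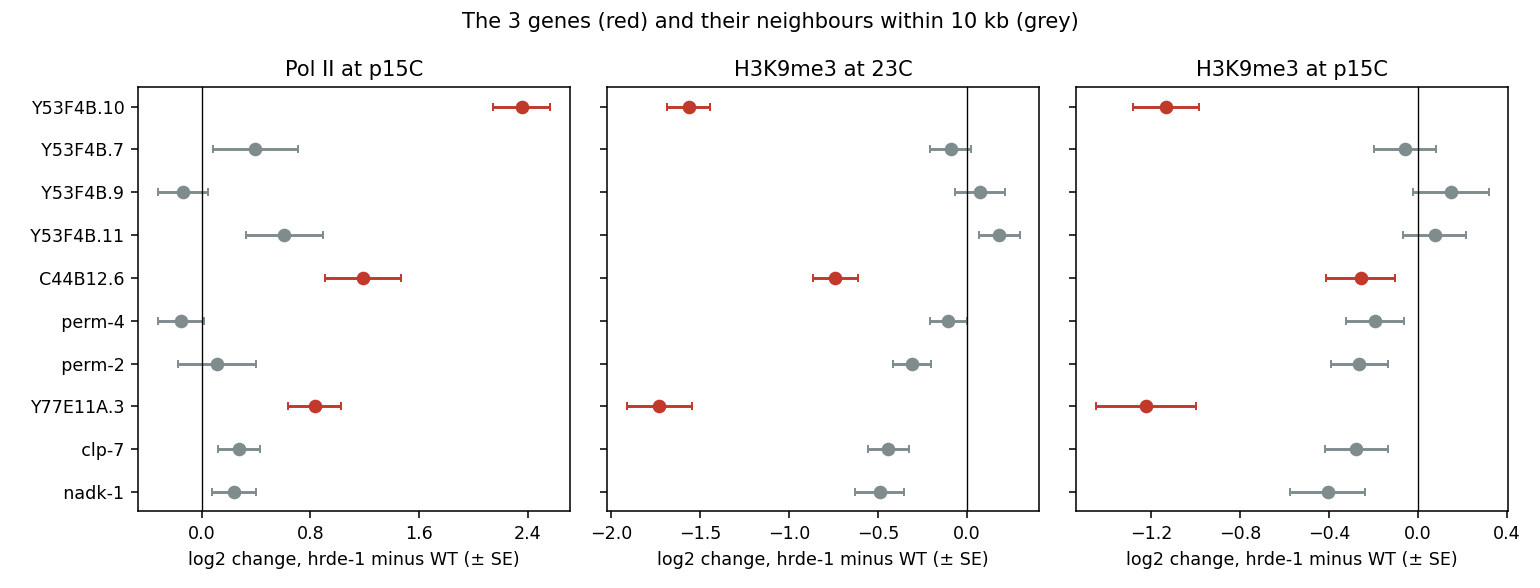
Log2 change between hrde-1 and WT (points, with SE as bars) for the 3 genes (red) and their neighbours within 10 kb (grey), in Pol II at p15C, H3K9me3 at 23C and H3K9me3 at p15C. In H3K9me3 at 23C the 3 genes lie at -1.56, -0.74 and -1.73, and the neighbours between -0.49 and 0.18.

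The other high-stringent NHGs were read in the same fits, and were chosen on mRNA of the same experiment. Of the 19 others with no LTR element beside them, 4 were called higher in hrde-1 than in WT in Pol II at 23C, against 0.795% of all genes. The median log2 change of the 19 was 0.57 and that of all genes 0.03. The 3 genes had a median of 2.70, but they were chosen by Pol II at 15C-G3 and 23C. Their higher median at 23C was thus set in part by that choice. The 4 were faah-5, which encodes a hydrolase of fatty acid amides (log2 change 1.64, SE 0.18), fbxb-14, an F-box gene (1.44, SE 0.19), and AC8.4 and AC8.11, which share all their values (1.22, SE 0.19). At p15C faah-5 (1.22, SE 0.22) and fbxb-14 (1.54, SE 0.24) were called higher, against 0.825% of all genes, and the list's median was 0.54 against 1.19 for the 3 genes and 0.12 for all genes.

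H3K9me3 was called lower at 23C in 4 of the same 19 genes, against 0.838% of all genes: F57G4.9 (log2 change -1.75, SE 0.16), fbxb-14 (-1.47, SE 0.14), C18D4.6 (-1.23, SE 0.15) and Y79H2A.4 (-1.12, SE 0.15). At p15C 5 were called lower, against 0.902% of all genes: F57G4.9 (-1.80, SE 0.20), fbxb-14 (-1.41, SE 0.17), C18D4.6 (-1.39, SE 0.19) and the AC8.3 and AC8.10 pair with shared values (-1.01, SE 0.16). Medians of the 19 were -0.65 at 23C and -0.62 at p15C, against -1.56 and -1.13 for the 3 genes and 0.06 and 0.09 for all genes. Of the 17 NHGs beside an LTR element, 15 were called higher in Pol II at 23C (median 1.89, 0.795% of all genes called) and 11 at p15C (median 1.72, 0.825%). Their H3K9me3 was called lower in 8 at 23C (median -0.96, 0.838% of all genes called) and 7 at p15C (median -0.95, 0.902%).

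Across the 12 Pol II libraries the 3 genes followed each other, with Pearson correlations of log2 levels of 0.96 for Y53F4B.10 with C44B12.6, 0.96 for Y53F4B.10 with Y77E11A.3 and 0.98 for C44B12.6 with Y77E11A.3. These are descriptions over libraries that share 2 lineages and, for these genes, a difference between hrde-1 and WT at 23C. The lists that follow leave out the 3 genes themselves and genes within 10 kb of the gene in question. The 5 other genes most like Y53F4B.10 among 20116 were T11F9.19, F58H7.5, faah-5, ZK262.8 and Y53H1B.4 (0.971 to 0.974). For C44B12.6 they were Y46G5A.39, ZK228.3, ZK228.10, ZK228.1 and AC8.11 (0.958 to 0.969), and for Y77E11A.3 Y46G5A.39, ZK228.1, T11F9.19, faah-5 and F21D9.8 (0.949 to 0.969).

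Of these 11 genes, 4 were shared between 2 of the 3 lists, 2 were NHGs beside an LTR element (F58H7.5 and ZK262.8) and 2 were other NHGs (faah-5 and AC8.11). Of the 11, 4 had less H3K9me3 in hrde-1 at 23C with an adjusted p in limma under the threshold but under 2-fold, namely ZK262.8 (-0.96, adjusted p = 0.004), AC8.11 (-0.94, 8.6e-05), faah-5 (-0.65, 0.0026) and Y46G5A.39 (-0.43, 0.047). The share of all genes that met both conditions was not counted. Nearly level among the 11 were Y53H1B.4, which had 15.4 RPKM in hrde-1 and 14.3 RPKM in WT (log2 change 0.08, SE 0.13), and ZK228.3. The latter had 8.57 RPKM in hrde-1 and 8.65 RPKM in WT (-0.02, SE 0.11). T11F9.19 was lower, with 5.91 RPKM in hrde-1 and 7.89 RPKM in WT (-0.35, SE 0.16), at a limma adjusted p of 0.33. ZK228.1 (-0.27, SE 0.21), F21D9.8 (-0.27, SE 0.19) and ZK228.10 (-0.12, SE 0.19) were lower by less. F58H7.5 alone of the 11 was called lower in H3K9me3 at 23C, against 0.838% of all genes. It had 12.3 RPKM in hrde-1 and 41.3 RPKM in WT (-1.71, SE 0.18, limma adjusted p = 4.2e-06).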

How the data were processed

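Pol II, H3K9me3 and input ChIP-seq reads (50-nt single-end) were aligned by the authors with Bowtie 0.12.7 to WS190, keeping perfect alignments on both strands. The authors deposited RPKM values per gene, with no input subtracted. How reads with several matches were counted is not given in the sources used here. For 73.4% of values (median over libraries, within 0.02 of a read), RPKM came to whole reads if 999 bp were added to the gene length, against 3.98% without, and depth and reads were estimated that way. Of 20911 entries, isoforms were reduced to 20167 genes, and 19562 names matched RefSeq.

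Genotypes and phases were compared with limma 3.58.1 (R 4.3.3, trended eBayes) on log2(RPKM + 1), which understates changes of low genes, in 1 model of 12 libraries and 6 groups per assay, leaving out genes whose mean was under 1 RPKM in that assay or in input. P-values were adjusted by Benjamini-Hochberg over all genes, and a call needed 0.1 or less and 2-fold. Libraries of 1 generation deviated together in Pol II (correlations of 0.36 to 0.71 between genotypes) but not in every generation of H3K9me3 (0.05 to 0.21), so generation served as a block only as an alternative. Calls were tested on simulated data.

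The genes and lists were chosen with earlier results of these data known. Named were the 3 genes, their nearest genes within 10 kb, called NHGs without LTR elements, the 5 most correlated other genes for each, and hrde-1. Alternatives were the added constant, filters, centring, quantile normalization, no trend, fewer libraries, the block and the ratio to input. Python 3.11.15, pandas 2.3.3, numpy 2.4.6 and matplotlib 3.10.9 were used.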

Additional observations from a re-analysis of the deposited data

Results flagged for a closer look

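The H3K9me3 values of C44B12.6 under heat lay on opposite sides of 15C-G3 in the 2 genotypes. Each of the 3 hrde-1 libraries at 23C had less H3K9me3 than hrde-1 at 15C-G3, and each of the 3 WT libraries had more than WT at 15C-G3. The difference was -0.81 on the log2 scale (SE 0.26, unadjusted p = 0.0055 and adjusted p = 0.63 over 20167 genes, limma), so it failed the correction. Neither genotype's own change was called (-0.55, adjusted p = 0.37 in hrde-1, and 0.26, adjusted p = 0.72 in WT), and each rests on 1 library at 15C-G3. How many of all genes lie on opposite sides of 15C-G3 in this way was not counted.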

How the results depend on the processing

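The 18 values tested for the 3 genes were recomputed under 357 alternatives in all, of which 332 left direction and call as they were, 19 lost a call, 1 gained one and 5 turned a direction. Most of the 18 were not called to begin with and had no call to lose. Of the 21 alternatives for C44B12.6 in Pol II at p15C, 11 lost the call. Pol II at p15C: the 191 genes called became 44 on the input ratio, 292 with the generation block, 78 without both p15C-G1 libraries (chosen after seeing the data) and 107 to 230 with 1 library left out. Y53F4B.10 was 2.18 on the input ratio, and C44B12.6 was 0.97 with 2 added, 0.997 with centring, 1.19 with no trend (adjusted p = 0.11), 1.08 on the input ratio, 1.02 without both p15C-G1 libraries and 0.89 to 1.48 with 1 library left out. At 23C, the 171 genes with a different Pol II became 109 on the input ratio. H3K9me3 at 23C on the input ratio was -1.04 for Y53F4B.10 and -1.12 for Y77E11A.3. At p15C the 184 genes became 15 on that ratio, where Y53F4B.10 (-1.31) and Y77E11A.3 (-0.71) both lost their calls (adjusted p = 1). Y53F4B.10 was -0.98 there with quantile normalization, -1.29 to -0.98 with 1 library left out, and Y77E11A.3 -1.37 to -1.07.

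For H3K9me3 of hrde-1, 23C against 15C-G3, the 13 genes became 6 with 2 added, 0 with centring, 0 with only the groups compared, 0 on the input ratio and 0 to 34 with 1 library left out (Y77E11A.3 -1.40 to -0.898). For WT the 10 genes became 6 with 2 added, 5 with quantile normalization, 0 on the input ratio and 0 to 16 with 1 library left out, and Y77E11A.3 was 0.24 on the input ratio. For input, 1 gene became 0 with quantile normalization, 0 with the block and 0 to 56 with 1 library left out. C44B12.6 in input was -0.014 with centring, and -0.037 without WT 23C-G6 and -0.02 without hrde-1 23C-G2 (lowest and highest -0.037 and 0.173), and Y53F4B.10 was -0.497 to 0.021, with 1 library left out. In the description of Pol II, 2 added gave 3.15 for Y53F4B.10 and 2.34 for C44B12.6 between genotypes at 23C. Between 23C and 15C-G3, centring gave 1.49 for Y77E11A.3 in hrde-1, and in WT -0.56 for Y53F4B.10 and 0.046 for Y77E11A.3, while quantile normalization gave -0.51 for Y53F4B.10, 0.12 for C44B12.6 and 0.063 for Y77E11A.3. The causes were not tested. No paired analysis was possible because of the single 15C-G3 library where 23C was compared with 15C-G3. Elsewhere the block changed no call of the 3 genes. Input depth, 2 to 48 reads per gene, limits every value that rests on it.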
